A study of Mus musculus with 2 samples.

Results

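S100 proteins are small calcium-binding proteins that carry a pair of EF-hand motifs and act by docking onto other proteins. The 7 S100 genes described here, S100a4, S100a6, S100a8, S100a9, S100a10, S100a11 and S100a13, were picked by gene symbol out of 18 S100 genes and 31253 genes in all. Each was followed through the immune cells of mouse glioma. The level of a gene is its number of unique molecular identifiers (UMIs, 1 per captured transcript) summed over the cells of a class, per 1000000 UMIs of those cells (CPM). Beside it stands the share of cells with at least 1 UMI.

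The cells were living (eFluor780-), CD45.2+ and CD45.1-, a gate the labels use for the host's own immune cells, and were sorted from gliomas of mice in a study of adoptively transferred macrophages. Single-cell libraries were made on the BD Rhapsody microwell platform. There were 2 libraries, PBS (no time given) and EM (72 h in its title). What EM abbreviates, the number of mice per library and their age were not given in the sources used here. After filtering, PBS held 7756 cells with a median of 4303 UMIs and EM held 7967 cells with a median of 2016 UMIs.

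With 1 library per group there is no replicate, and no test was made between libraries. All intervals are exact 95% intervals and cover counting error only. A ratio of EM over PBS was called different at 2-fold or more, if the gene had 20 or more UMIs over both libraries and 10 CPM or more in the higher one. Xist, the RNA that silences an X chromosome in female cells, was at 10.6 CPM (PBS) against 384 CPM (EM). Ddx3y, from the Y chromosome, was at 192 against 4.46 CPM. These differences, depth and treatment cannot be told apart. The libraries shared 66 cell barcodes. Clusters were made without any S100 gene and named "-like" from marker lists that hold none, and 2 of 29 clusters stayed unnamed (307 PBS cells and 14 EM cells).

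S100a8 and S100a9 pair as calprotectin, an abundant cytosolic protein of neutrophils that sequesters metal ions and, once released, signals through receptors such as Tlr4. S100a4 and S100a6 bind cytoskeletal partners and annexins and are linked to cell movement. S100a10 binds annexin A2 under the plasma membrane, and S100a11 binds annexin A1. S100a13 takes part in the release of proteins that lack a signal peptide, such as interleukin 1 alpha.

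All 7 genes lie on mouse chromosome 3 (GRCm38, positions from GENCODE). S100a13 (90514435 to 90524581), S100a4 (90603771 to 90606045), S100a6 (90612882 to 90624181) and S100a8 (90668978 to 90670035) are on the plus strand. S100a9 (90692632 to 90695721) follows on the minus strand, and these 5 genes span 181287 bases. S100a11 (93520488 to 93526287) begins 2824766 bases beyond S100a9, followed by S100a10 (93555080 to 93564643), both on the plus strand. The gene model Gm42674 overlaps S100a4, and a processed copy, S100a11-ps, is annotated but is no row of the files, so reads shared with these are uncertain.

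RefSeq promoter windows (250 bases before to 50 after the start, GRCm38.p6) were at hand for 6 of the 7 genes. The stretches shown for the calprotectin pair, which are neighbours with the same cell type below, are those around the motif TATAAA. For S100a4 and S100a11, whose levels differed between libraries in dendritic-like cells, a stretch around a motif is also shown. S100a6 and S100a10 differed there too, but S100a6 had no match and S100a10 no window. The motif TATAAA, searched on both strands, was in the windows of S100a4, S100a8 and S100a9 and in 13.6% of 32851 windows. Capitals mark it. It begins at base -31 of S100a4, -30 of S100a8 and 1 of S100a9, counted from the RefSeq start.
S100a4, chr3:90603727-90603756, plus strand: ggcctggcagggTATAAAtaggtcagattg
S100a8, chr3:90669029-90669058, plus strand: caagctttcctcTATAAAagcagctgacac
S100a9, chr3:90695704-90695733, minus strand: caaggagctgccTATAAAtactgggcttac
The AP-1 motif TGANTCA was in the S100a11 window, beginning at bases -136 and -38, and in 7.81% of windows. Capitals mark the nearer one.
S100a11, chr3:93520447-93520476, plus strand: cgggcacagccTGAGTCAggctgaggggcg
The C/EBP motif TTGCNNAA was in the S100a9 window (10.8% of windows), and its stretch is not shown. The STAT motif TTCNNNGAA (8.30%) and the interferon response motif (GAAA, any 2 bases, GAAA; 3.44%) were in none of the 6. A match describes letters in a window and is no evidence of binding.

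S100a8 and S100a9 were neutrophil transcripts of the PBS library. There, neutrophil-like cells were 8.33% of the cells and held 11444 of 12096 S100a8 UMIs (94.6%) and 18798 of 19321 S100a9 UMIs (97.3%). Their level was 9641 CPM for S100a8 (9465 to 9819), found in 80.3% of the cells, and 15837 CPM for S100a9 (15611 to 16065), found in 87.6%. The whole EM library held 2 S100a8 UMIs, both in monocyte-like cells, and 3 S100a9 UMIs, of which 2 were in basophil or mast-like cells and 1 in an eosinophil-like cell. Over all cells the log2 ratio was -11.39 for S100a8 (-14.43 to -9.54) and -11.48 for S100a9 (-13.76 to -9.93). PBS held 646 neutrophil-like cells and EM none, so no ratio within the class exists.

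Other genes of neutrophils followed in part. Lcn2, which traps bacterial siderophores, had 876 UMIs in the PBS library and 1 in EM, and the granule gene Ngp had 276 and 0. The receptor genes Csf3r (2933 and 199 UMIs) and Cxcr2 (1980 and 234), the protease gene Mmp9 (3315 and 65) and Retnlg (7644 and 166) were also counted in EM. Other cells held many of these UMIs. In EM, basophil or mast-like cells had 222 of Cxcr2 and T-like cells 59 of Mmp9. Csf3r had 98 in monocyte-like and 58 in microglia-like cells of EM. In PBS, macrophage-like cells had 1860 Mmp9 UMIs and neutrophil-like cells 1306. Of the other granule genes listed, Ltf had 56 UMIs in PBS and Camp 4, against 13 and 0 in EM. Eosinophil-like cells of PBS carried Retnlg at 10629 CPM, above its 4035 CPM in neutrophil-like cells, but S100a8 at only 12.1 CPM and S100a9 at 64.7 CPM. The name of this class (cluster 17, 256 PBS and 28 EM cells) is uncertain. Its eosinophil marker score of 2.15 was below its neutrophil score of 2.26, the neutrophil list summed to 13142 CPM against 991 CPM for the eosinophil list, and the name rests on Ccr3 and Alox15 among its leading genes.

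Within the neutrophil-like cells the pair was unevenly spread. At a clustering resolution of 2.0, a split looked at after seeing the data, the class fell into 302 cells with Mmp8, a collagenase of neutrophil granules, at 1364 CPM and 344 cells with the cytokine gene Il23a at 664 CPM. S100a8 was at 16192 CPM in the Mmp8 cells and 4293 in the Il23a cells, and S100a9 at 26553 and 7087. S100a6 (2407 and 709 CPM) and S100a11 (2875 and 653 CPM) had the same order. S100a4 had the opposite order, with 5 UMIs in the Mmp8 cells (9.37 CPM) and 80 in the Il23a cells (122 CPM).

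Outside neutrophil-like cells both genes were scarce, and the balance between them differed between classes. In T-like cells, which should lack both, S100a8 was at 4.97 CPM and S100a9 at 8.45 CPM in PBS. S100a8 made up 37.1% of the UMIs of the pair there (31.4 to 43.0%), against 37.8% in neutrophil-like cells (37.3 to 38.4%). It made up 74.6% in macrophage-like cells (69.7 to 79.1%; 259 S100a8 and 88 S100a9 UMIs) and 72.8% in monocyte-like cells (66.4 to 78.6%; 158 and 59 UMIs). Both of these intervals lie above those of the T-like and neutrophil-like cells.

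A few cells held many UMIs of the pair. Without the 4 cells with at least 10 such UMIs in each class, the S100a8 share was 82.2% in macrophage-like and 90.8% in monocyte-like cells. The microglia-like share was 43.8% (37.2 to 50.7%). It rested on 2 such cells, without which 18 UMIs of each gene were left. With cells thinned to 1000 UMIs and shallower cells left out (4 of 435, 54 of 1184 and 210 of 4128), an S100a8 UMI was found in 5.10% of monocyte-like cells (3.23 to 7.63%), 2.30% of macrophage-like cells (1.51 to 3.35%) and 0.332% of T-like cells (0.177 to 0.567%). Unthinned, these shares were 13.3%, 14.6% and 1.14%, at medians of 5440, 10806 and 4309.5 UMIs per cell. Relative to its neutrophil level, S100a8 was at 0.210% in macrophage-like and 0.0516% in T-like cells, S100a9 at 0.0435% and 0.0534%, and Retnlg at 0.111% and 0.140%. Other listed neutrophil genes were higher in macrophage-like cells, as S100a8 was. These were Csf3r (3.76% and 0.170%), Mmp9 (13.2% and 0.224%), Ltf (1.67% and 0.735%), Lcn2 (0.135% and 0.0832%), Ngp (0.0696% and 0.0644%) and Cxcr2 (0.0553% and 0.0341%). Camp had no UMI in either class. Classed cell by cell from the marker lists, macrophage-like cells had an S100a8 share of 54.4%.

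**Figure D1:**
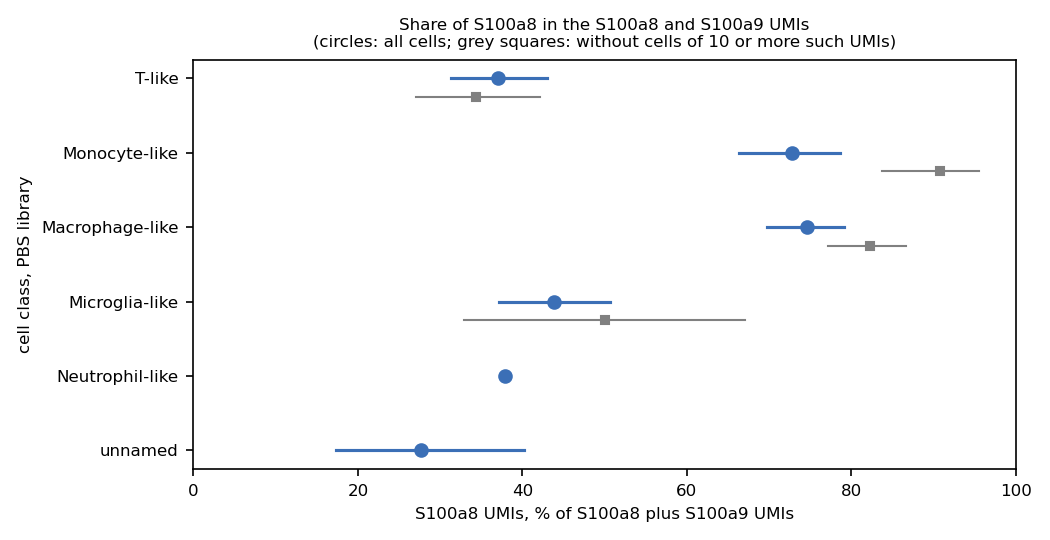
S100a8 UMIs as a percentage of the S100a8 and S100a9 UMIs (horizontal axis, %) by cell class of the PBS library (vertical axis). Circles are all cells, grey squares leave out cells with 10 or more such UMIs, and lines are exact 95% intervals; the macrophage-like (74.6%) and monocyte-like (72.8%) circles sit to the right of the neutrophil-like (37.8%) and T-like (37.1%) ones.

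Most S100a4 UMIs lay in T-like cells, which were 53.2% of PBS and 65.3% of EM cells. T-like cells held 93.3% of its UMIs in PBS and 80.7% in EM, at 839 CPM (827 to 852) and 941 CPM (924 to 958). In PBS, monocyte-like (158 CPM), NK-like (144 CPM) and dendritic-like cells (128 CPM) came next, and each overlapped its neighbour within counting error, as did eosinophil-like (72.8 CPM) and neutrophil-like cells (71.6 CPM). Plasma-like (16.9 CPM), macrophage-like (16.8 CPM) and microglia-like cells (7.28 CPM) were lowest, and the 55 B-like cells had no UMI, which allows up to 27.3 CPM.

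In EM the order was different. Monocyte-like cells led at 1322 CPM, above T-like cells and dendritic-like cells (775 CPM). NK-like (212 CPM), microglia-like (167 CPM) and macrophage-like cells (163 CPM) followed, each overlapping its neighbour. Basophil or mast-like (90.3 CPM), B-like (56.4 CPM) and plasmacytoid-like cells (37.6 CPM) were lowest.

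**Figure D2:**
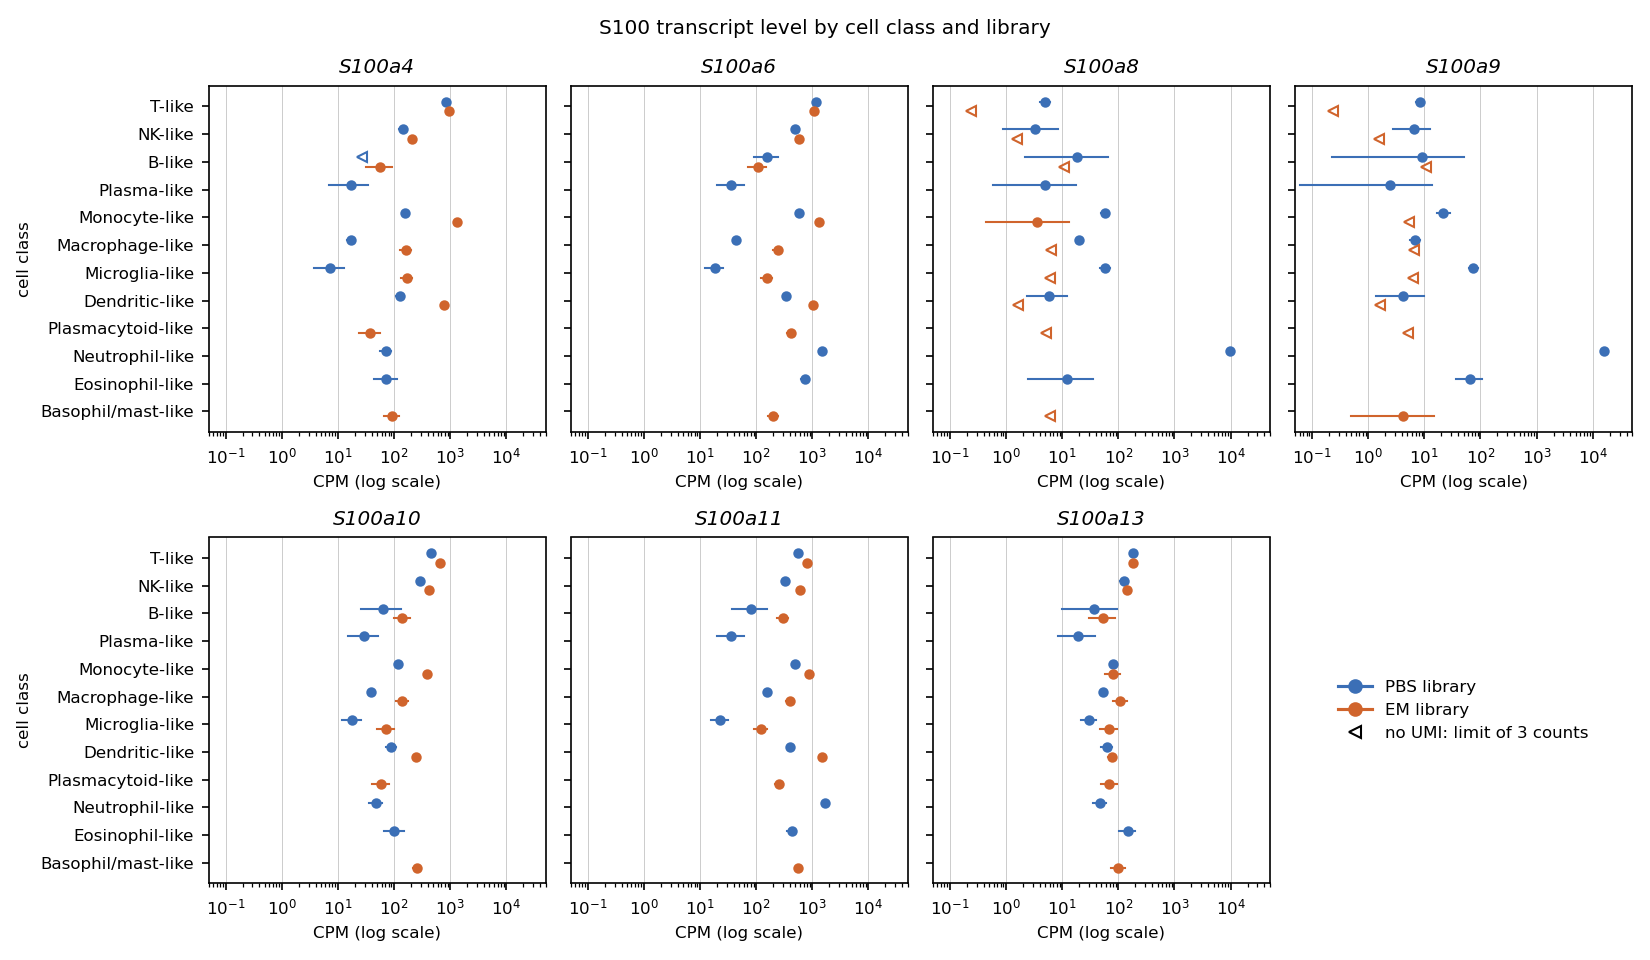
Level of each of the 7 genes (horizontal axis, CPM, log scale) by cell class (vertical axis) in the PBS library (blue) and the EM library (orange), with exact Poisson 95% intervals. Open triangles mark the limit of 3 counts where no UMI was found, and classes under 50 cells in a library have no point; S100a8 (9641 CPM) and S100a9 (15837 CPM) are high only in PBS neutrophil-like cells.

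Among T-like clusters S100a4 ranged widely. It was highest in the 50 EM cells of cluster 28, led by the gamma delta T cell genes Trdc and Trgc1 (2067 CPM, 1801 to 2361), and in the 411 EM cells of cluster 14, led by Klrh1 and the chemokine gene Xcl1 (1719 CPM). Cluster 6, led by Penk and Cd4, was at 1351 CPM (PBS) and 1674 CPM (EM). Cluster 4, led by the interleukin 7 receptor gene Il7r, was lowest at 456 and 318 CPM. In the 5 T-like clusters with enough cells in both libraries, the log2 ratio of S100a4 ran from -0.52 in cluster 4 to 0.80 in cluster 2, which is led by the regulatory T cell gene Foxp3.

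**Figure D3:**
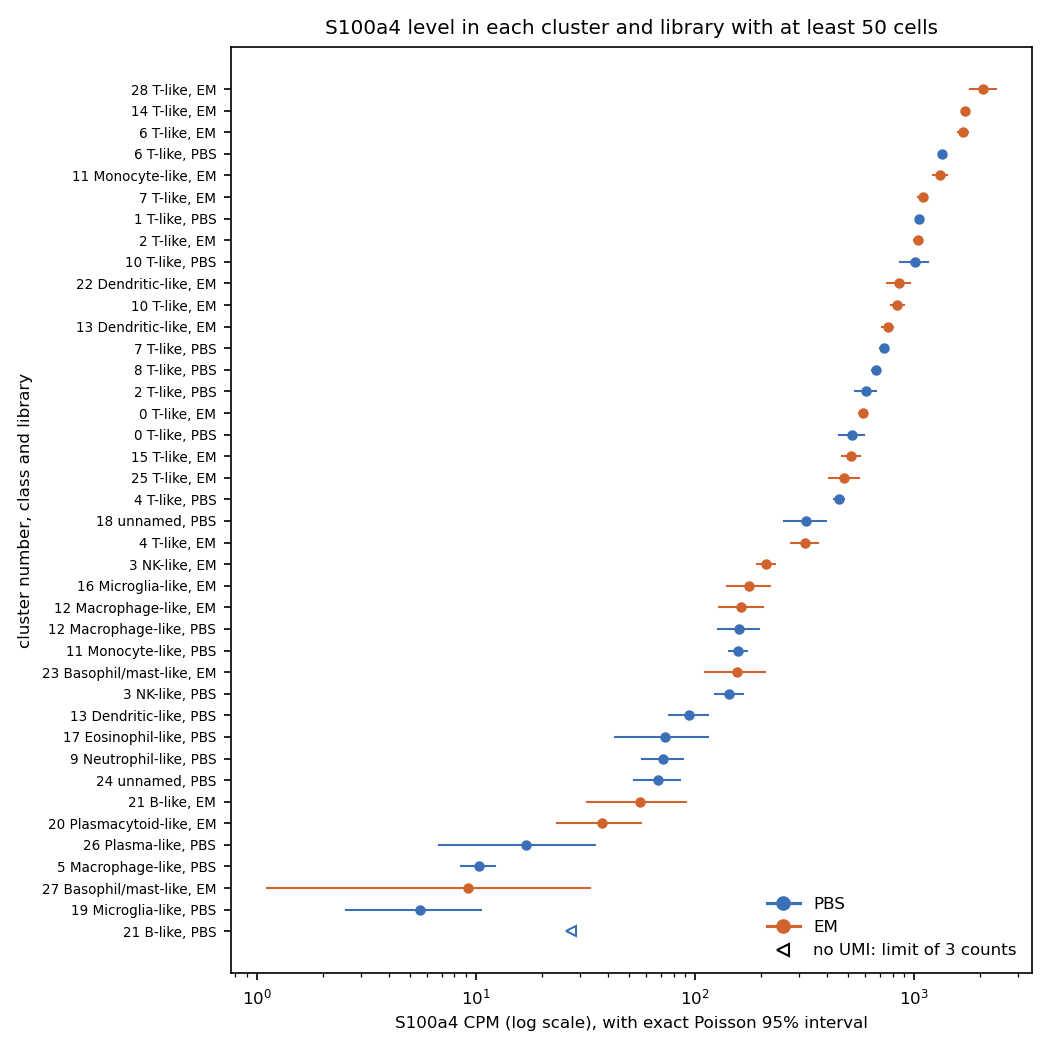
S100a4 level (horizontal axis, CPM, log scale, with exact Poisson 95% intervals) in every cluster and library with at least 50 cells (vertical axis), sorted by level, PBS in blue and EM in orange. An open triangle marks the limit of 3 counts; EM monocyte-like cluster 11 (1322 CPM) stands among the T-like clusters, and PBS macrophage-like cluster 5 (10.3 CPM) and microglia-like cluster 19 (5.58 CPM) are near the low end.

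In T-like cells none of the 5 members that passed the minimum differed 2-fold, against 3.61% of genes higher and 4.83% lower in EM. The log2 ratio was 0.17 for S100a4 (0.13 to 0.20), -0.11 for S100a6 (-0.14 to -0.08) and 0.04 for S100a13 (-0.03 to 0.12). It was 0.52 for S100a10 (453 and 648 CPM) and 0.53 for S100a11 (552 and 796 CPM). In the Foxp3 cells of cluster 2, S100a11 went from 408 CPM in PBS to 922 in EM (1.18; 0.98 to 1.38). S100a8 (103 UMIs) and S100a9 (175 UMIs) of PBS T-like cells were under the minimum, and EM T-like cells had no UMI of either, which allows up to 0.240 CPM.

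In NK-like cells none of 5 members differed 2-fold, against 4.69% of genes higher and 8.62% lower. S100a11 was nearest to it, with 321 CPM (290 to 354) in PBS and 612 (577 to 648) in EM, a log2 ratio of 0.93 (0.76 to 1.10). It was at 1.26 with cells thinned, 1.20 with equal weight per cell and 1.05 with median-of-ratios size factors, each past 2-fold. S100a4 was at 0.56 and S100a10 at 0.55, and the median of all genes tested at -0.13.

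In dendritic-like cells (144 in PBS, 509 in EM) S100a4, S100a6, S100a10 and S100a11 were higher in EM. These were 4 of the 5 members that passed the minimum, and none was lower, against 7.83% of genes higher and 9.5% lower. S100a11 went from 398 CPM (363 to 436) to 1466 (1411 to 1523), a log2 ratio of 1.88 (1.74 to 2.02). S100a4 went from 128 to 775 CPM (2.60; 2.36 to 2.85), S100a6 from 338 to 1033 CPM (1.61; 1.45 to 1.77) and S100a10 from 88.2 to 245 CPM (1.48). S100a13 was at 62.2 and 78.6 CPM (0.34; -0.08 to 0.76). The median log2 ratio was 1.61 over these 5 members and -0.07 over all genes tested. Thinned to 1000 UMIs, with the 3 PBS and 44 EM cells below that left out, 41.1% of PBS and 71.6% of EM cells had an S100a11 UMI, and 11.3% and 36.8% an S100a4 UMI. The monocyte marker list moved with these genes. All 9 of its markers had UMIs in both libraries, and they summed to 442 CPM (PBS) and 2202 CPM (EM), while the dendritic list summed to 3318 and 3357 CPM. That list is not confined to monocytes. It summed to 737 CPM (PBS) and 2905 CPM (EM) in T-like cells, and to 7522 CPM in plasmacytoid-like cells of EM. Whether monocytes lay among the dendritic-like cells, and their part in the difference over the class, was not tested.

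Subsets of the class were also compared. In cluster 13, led by Xcr1, Cd209a and Flt3 of conventional dendritic cells (121 PBS and 387 EM cells), the log2 ratio was 3.01 for S100a4, 1.85 for S100a6, 1.48 for S100a10 and 1.95 for S100a11. At resolution 2.0, added after seeing the data, 101 EM and 3 PBS cells of cluster 13 fell in the cluster led by Cd209a and Vcan that also held most EM monocyte-like cells. The other 118 PBS and 286 EM cells, finer cluster 15, had S100a4 at 2.56 (2.24 to 2.89), S100a6 at 1.44, S100a10 at 1.06 (0.70 to 1.42), S100a11 at 1.92 (1.76 to 2.08) and S100a13 at 0.08. Monocyte markers were at 338 and 1402 CPM in these cells. In dendritic-like cells with a UMI of Xcr1 or Clec9a, markers of type 1 dendritic cells, and none of Cd209a or Clec10a, S100a11 went from 151 CPM (44 PBS cells) to 1275 CPM (160 EM cells; 3.08, 2.73 to 3.45). S100a4 was far lower in those cells, at 33.0 CPM (16 UMIs) and 171 CPM (112 UMIs). The 80 EM cells of the opposite gate had S100a4 at 1472 CPM. In cluster 22, led by Fscn1 and Ccr7 of migratory dendritic cells (23 PBS and 122 EM cells), S100a4 went from 302 to 852 CPM (1.49; 1.08 to 1.93) and S100a11 from 427 to 1214 CPM (1.51; 1.16 to 1.87). Monocyte markers were at 308 and 756 CPM there, and at 235 and 1415 CPM in the Xcr1 or Clec9a cells. T cell markers were at 427 and 1672 CPM in cluster 22, and at 134 and 445 CPM in the Xcr1 or Clec9a cells. Their part in these ratios was not tested.

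In monocyte-like cells (cluster 11, 435 in PBS and 165 in EM) 3 of 7 members were higher and 2 lower, against 8.31% of genes higher and 20.3% lower. S100a4 went from 158 CPM (143 to 173) to 1322 (1228 to 1422), a log2 ratio of 3.07 (2.89 to 3.24). S100a6 went from 574 to 1337 CPM (1.22; 1.09 to 1.35) and S100a10 from 117 to 388 CPM (1.73; 1.48 to 1.99). S100a11 (485 and 880 CPM; 0.86) and S100a13 (80.7 and 79.7 CPM; -0.02) stayed within 2-fold. S100a8 had 158 UMIs in PBS and 2 in EM (-4.01; -7.07 to -2.14), and S100a9 had 59 and 0. The S100a9 call rests on the 4 PBS cells with many UMIs of the pair. Without them 10 S100a9 UMIs were left, under the minimum of 20, and 99 of S100a8. The S100a6 ratio was within 2-fold with cells thinned (0.81), with equal weight per cell (0.84) and with a per-cell marker gate (0.04), which also left S100a10 at 0.07. S100a11 passed 2-fold at resolution 2.0 (1.28) and with size factors (1.15). The median log2 ratio of all genes tested was -0.27.

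The mix of cells in the monocyte-like class differed with S100a4. Ly6c2, a marker of classical monocytes, was at 891 CPM in PBS and 4868 in EM, while C1qa, a complement gene of macrophages, was at 362 and 77.9 CPM and the arginase gene Arg1 at 422 and 39.9 CPM. In monocyte-like cells with a Ly6c2 UMI (229 in PBS, 147 in EM) S100a4 was at 222 and 1385 CPM (2.64; 2.45 to 2.84). At resolution 2.0, a cluster led by Cd209a and Vcan took in 164 of the 165 EM cells and 48 of the 435 PBS cells. Among these, Ly6c2 was at 4488 and 4875 CPM, and S100a4 at 1096 and 1324 CPM, a log2 ratio of 0.27 (0.04 to 0.51). The whole monocyte marker list still differed between these cells, with sums of 24885 CPM in PBS and 11609 CPM in EM. S100a6 was then at -0.45 (-0.64 to -0.26), S100a10 at 0.20 (-0.22 to 0.64) and S100a11 at 0.42 (0.12 to 0.72), all within 2-fold. S100a8 was lower in EM in these cells too, with 98 UMIs in PBS and 2 in EM. These subsets were chosen after seeing the data, and the part of the cell mix in the difference over the whole class was not tested.

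In macrophage-like cells 5 members were higher and 1 lower of 6 that passed the minimum, against 12% of genes higher and 21.9% lower. S100a4 went from 16.8 to 163 CPM (3.28; 2.88 to 3.67), S100a6 from 44.4 to 244 CPM (2.46), S100a10 from 39.1 to 139 CPM (1.83), S100a11 from 156 to 392 CPM (1.33) and S100a13 from 52.5 to 107 CPM (1.03; 0.58 to 1.44). S100a8 had 259 UMIs in PBS (20.3 CPM) and none in EM, which allows up to 6.43 CPM. The S100a13 ratio was within 2-fold thinned (0.67), at resolution 0.5 (0.87), with equal weight (0.90), with T cell RNA subtracted as described below (0.94), with the gate (0.97) and without the highest doublet scores (0.97). At resolution 0.5, S100a6 (0.99) and S100a11 (0.88) were also within 2-fold. The median log2 ratio of all genes tested was -0.11.

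Different clusters made up the macrophage-like class in each library. All 999 cells of cluster 5, led by Mmp13 and Mrc1, came from PBS, and cluster 12 held 185 PBS and 414 EM cells. Within cluster 12 none of the 5 ratios reached 2-fold. S100a4 was at 160 CPM in PBS (128 to 197) and 163 CPM in EM (128 to 204), a log2 ratio of 0.03 (-0.43 to 0.49), and S100a6 was at -0.07, S100a11 at 0.30 and S100a13 at 0.53. T cell markers summed to 1296 CPM (PBS) and 932 CPM (EM) in cluster 12, against 6239 and 6866 CPM in T-like cells. The part of T cell RNA in the levels of cluster 12 was not tested. The median depth was 10806 UMIs in the PBS class and 865.5 in the EM class, and 1663 in the PBS cells of cluster 12.

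In microglia-like cells 5 members were higher and 2 lower, against 11.3% of genes higher and 21.8% lower. S100a4 had 12 UMIs in PBS (7.28 CPM) and 81 in EM (167 CPM), a log2 ratio of 4.52 (3.64 to 5.53). S100a6 went from 18.2 to 153 CPM (3.07), S100a11 from 22.4 to 122 CPM (2.44), S100a10 from 17.6 to 72.2 CPM (2.04) and S100a13 from 29.7 to 68.1 CPM (1.20; 0.51 to 1.86). S100a8 (96 UMIs) and S100a9 (123 UMIs) had none in EM, and both rested on the 2 PBS cells named above. Cluster 19 gave 187 of the 203 PBS cells and cluster 16 gave 385 of the 392 EM cells, at medians of 8027 and 902 UMIs over the class, so no shared cluster was compared. The median log2 ratio of all genes tested was -0.15.

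T cell markers moved with these myeloid differences. All 9 T markers had UMIs in the 4 myeloid classes of both libraries, and the CD45 gate does not remove T cells. The summed level of the list, as a percentage of that in T-like cells of the same library, was 2.46% (PBS) and 13.6% (EM) in macrophage-like cells and 2.33% and 13.4% in microglia-like cells. It was 3.23% and 10.4% in dendritic-like cells and 3.30% and 4.38% in monocyte-like cells. With that share of the T-like profile subtracted, an alternative added after seeing the data, S100a4 was left at 0 in PBS and 40.6 CPM in EM in macrophage-like cells, and at 0 and 47.4 CPM in microglia-like cells. It was left at 104 and 755 CPM in dendritic-like cells and at 134 and 1340 CPM in monocyte-like cells. In microglia-like cells S100a11 was left at 9.79 and 17.3 CPM and S100a10 at 7.18 and 0 CPM. The S100a10 ratio there was thus -0.21 against the limit of 3 counts, and S100a11 (0.82) and S100a13 (0.94) were within 2-fold. The error of the subtracted share is not included, so the direction of S100a10 after subtraction is uncertain. S100a10 was also within 2-fold there with equal weight per cell (0.83), and S100a13 without the highest doublet scores (0.99).

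**Figure D4:**
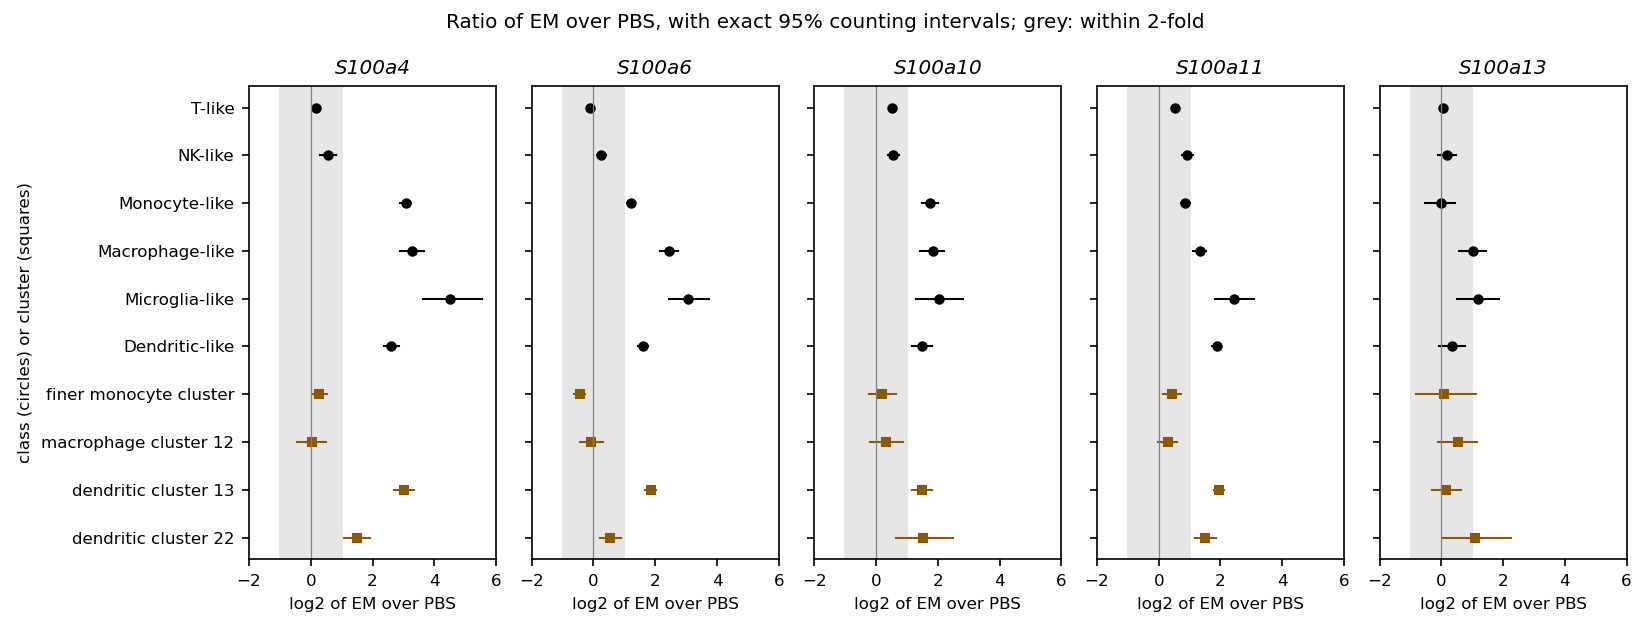
Log2 ratio of EM over PBS (horizontal axis) for the 5 members other than S100a8 and S100a9, with exact 95% counting intervals, in 6 classes (circles) and 4 clusters (squares, vertical axis). The grey band is within 2-fold; S100a4 lies in the band for the finer monocyte cluster (0.27) and macrophage cluster 12 (0.03), and outside it for dendritic clusters 13 (3.01) and 22 (1.49).

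S100a6 was broadly present. Among the named classes of PBS its order ran from neutrophil-like (1472 CPM) through T-like (1162 CPM), eosinophil-like (732 CPM), monocyte-like (574 CPM), NK-like (487 CPM), dendritic-like (338 CPM) and B-like cells (155 CPM). Macrophage-like (44.4 CPM), plasma-like (36.3 CPM) and microglia-like cells (18.2 CPM) were lowest. In EM, monocyte-like cells (1337 CPM) stood above T-like (1075 CPM) and dendritic-like cells (1033 CPM), which overlap, and B-like cells were lowest (106 CPM). Plasmacytoid-like cells, which were in EM only, had S100a6 at 411 CPM, S100a11 at 253 CPM and S100a10 at 58.2 CPM.

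Among named classes S100a10 was highest in T-like cells in both libraries (453 and 648 CPM). The 307 unnamed PBS cells were higher, at 1130 CPM for S100a10 and 3563 CPM for S100a6. The clusters led by Foxp3 had the most of the T-like clusters in each library, with 1252 CPM in EM cells of cluster 25, and 691 (PBS) and 945 CPM (EM) in cluster 2. S100a11 was highest in neutrophil-like cells in PBS (1652 CPM) and in dendritic-like cells in EM (1466 CPM). Dendritic-like cells were 6.39% of EM cells and held 17.8% of its S100a11 UMIs. S100a13 had the smallest range, from 19.4 CPM in plasma-like to 179 in T-like cells of PBS, and from 52.9 CPM in B-like to 185 in T-like cells of EM.

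Of 9 further S100 genes that were listed, S100a1 alone reached 20 CPM in a named class. It was at 73.1 and 57.9 CPM in macrophage-like cells of PBS and EM, 34.8 and 34.4 CPM in monocyte-like cells, 24.3 and 24.8 CPM in microglia-like cells and 29.9 CPM in EM NK-like cells. It was also at 25.2 CPM in PBS dendritic-like cells and 24.6 CPM in EM basophil or mast-like cells. In the 5 classes where it passed the minimum it stayed within 2-fold. S100a2 and S100a7l2 were not analysed here.

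Of 14 listed genes of S100 partners, cargo and receptors, 12 passed the minimum in monocyte-like cells, 4 higher and 3 lower in EM, against 8.31% and 20.3% of all genes. Anxa2, the partner of S100a10, was at 182 and 614 CPM (1.76; 1.55 to 1.96), and Anxa1 at 68.5 and 221 CPM (1.69; 1.35 to 2.03). Ahnak, a giant scaffold protein bound by the S100a10 and annexin A2 complex, was at 154 and 630 CPM (2.03; 1.82 to 2.24). The receptor gene Tlr4 was lower, at 77.0 and 23.6 CPM (-1.71; -2.64 to -0.90), as was the fatty acid receptor gene Cd36, at 65.5 and 27.2 CPM (-1.27).

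In dendritic-like cells 2 of 10 partners were higher and 1 lower, against 7.83% and 9.5% of all genes. Ahnak went from 41.2 to 287.5 CPM (2.80; 2.38 to 3.26), Cd36 from 243 to 52.4 CPM (-2.21; -2.56 to -1.87), and Anxa2 from 198 to 360 CPM, within 2-fold. Macrophage-like cells had 3 of 12 higher and 1 lower (12% and 21.9% of all genes), and microglia-like cells 4 of 11 higher and 1 lower (11.3% and 21.8%), with Ahnak at 2.25 and 2.49. NK-like cells had 1 of 10 higher and none lower (4.69% and 8.62%). T-like cells had none of 9 in either direction (3.61% and 4.83%), with Ahnak at 450 CPM in each library. Tlr4 was highest in PBS neutrophil-like cells (291 CPM). Bsg, a further receptor for S100a9, was between 54.6 and 299 CPM in every named class, and Ager, the receptor for advanced glycation end products, was at 3.53 CPM or below.

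The genes most alike in pattern were found over 40 sums of 1 cluster in 1 library, by Pearson correlation of log2(CPM + 10) among 7788 genes. These sums come from 2 libraries, so the values are descriptions. Neutrophil-like cells gave only 1 sum (cluster 9 of PBS), with S100a8 at 9641 CPM against 59.5 CPM or below in every other sum. The correlations of S100a8 and S100a9 therefore rest largely on that sum. S100a8 and S100a9 correlated with each other at 0.96. S100a8 was most like Wfdc21 (0.95), Stfa2l1 (0.94) and Csta2 (0.93), and S100a9 like Il23a (0.95), Il1f9 (0.94) and Stfa2l1 (0.93). S100a4 was most like the T cell surface gene Thy1 (0.86), Mbd2 and Cd3e, and S100a13 like Cd3d, Acsbg1 (both 0.84) and Acot7. S100a6 and S100a11 both had Anxa2 first (0.82 and 0.85), then Slc25a24 and Ezr for S100a6, and Mrpl33 and Tes for S100a11. S100a10 was most like Capn2 (0.88), Slc25a24 and Gstp3.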

How the data were processed

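The deposited files are matrices of whole-number, unnormalized UMI counts, 1 row per gene and 1 column per barcode; per the submitters' processing notes the authors used STARsolo and CASAVA 1.8 with mm10. Other upstream settings are not stated. Barcodes with at least 200 genes and 500 UMIs, and no more than 20% mitochondrial counts, were used: 7756 of 8333 in PBS (43538431 UMIs) and 7967 of 8039 in EM (19302929 UMIs). Scrublet called 0 and 3 cells and so has not worked; doublets were left in. Clusters came from scanpy 1.11.5 and leidenalg 0.10.2 (2000 variable genes, 30 components, 15 neighbours, resolution 1.0). They were named, by a rule rebuilt here, where the marker score was at least 0.5 and at least 3 markers were detected. The leading genes also had to hold no more markers of another class than of the named one. Shallow clusters with no marker of their class among the leading genes stayed unnamed, as did those closest to non-immune or red cells.

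Counts were summed per class and library. Levels carry exact Poisson, shares Clopper-Pearson and ratios conditional binomial 95% intervals (scipy 1.17.1), and no UMI means a limit of 3 counts. Classes of at least 100 cells in both libraries were compared, and subsets chosen after seeing the data could hold fewer. The ratio step was tested on simulated counts. Named are all members, other S100 genes from 20 CPM, a fixed list of partners and neutrophil genes, the 3 most alike genes per member, and, chosen after seeing values, the genes that lead a cluster or show its mix of cells. Members and lists were chosen with earlier results of these data known. Alternatives covered the cell filter, resolution, a per-cell marker gate, doublet scores, thinning to 1000 UMIs (shallower cells left out), cell weighting, size factors and the minimum level.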

Additional observations from a re-analysis of the deposited data

How the results depend on the processing

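No paired analysis was possible because each group is 1 library. The count of members past 2-fold, out of 7, was 0 in T-like, 0 in NK-like, 5 in monocyte-like, 6 in macrophage-like, 7 in microglia-like and 4 in dendritic-like cells. With no minimum level it was 2 in T-like and 2 in NK-like cells (S100a8 and S100a9, with no UMI in EM). It was 1 in NK-like cells when thinned, with equal weight per cell or with size factors. It was 3 in monocyte-like cells with the per-cell gate and when thinned, 3 in macrophage-like cells at resolution 0.5, and 4 in microglia-like cells when thinned or with T cell RNA subtracted. The log2 ratio of S100a4 in monocyte-like cells (3.07) was 2.21 with the gate, 3.25 without the highest doublet scores, 2.48 thinned, 2.57 with equal weight, 3.36 with size factors and 3.32 with T cell RNA subtracted. In macrophage-like cells (3.28) it was 4.13 with the stricter filter, 2.46 at resolution 0.5, 2.29 with the gate, 2.54 without the highest doublet scores, 1.46 thinned and 1.81 with equal weight. With T cell RNA subtracted, S100a4 was left at 0 in PBS there, and the ratio against the limit of 3 counts was 7.43. The error of the subtracted share is not included, so 7.43 is no minimum. In dendritic-like cells (2.60) it was 1.92 at resolution 0.5, 2.27 at 2.0, 2.33 with equal weight and 2.86 with T cell RNA subtracted. The S100a8 share in PBS macrophage-like cells (74.6%) was 69.0% at resolution 0.5, 54.4% with the gate, 80.6% without the highest doublet scores, 65.0% thinned and 82.2% without high cells. The cause was not tested. Of the called ratios that a setting gave, S100a10 in microglia-like cells changed sign (-0.21 with T cell RNA subtracted), and no other did. That sign rests on an EM level set to the limit of 3 counts and is uncertain. Thinning left out 250 of 414 EM macrophage-like and 230 of 392 EM microglia-like cells. Classes under 100 cells in a library gave none: monocyte-like at resolution 0.5, and microglia-like and dendritic-like with the stricter filter or the gate. A subtracted level under 3 counts gave a ratio only where its limit fixed a direction. The gene most like a member changed for 2 of 7 members with a pseudocount of 1 CPM and for 3 of 7 with at least 100 cells per sum. Depth limits S100a4 in microglia-like cells, which rests on 12 UMIs in PBS.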

Other observations

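The unnamed cluster 24 (120 PBS and 5 EM cells), with Apod and Krt18 among its leading genes, held the highest level of S100a6 (4282 CPM) and S100a10 (1350 CPM) of all clusters with at least 50 cells in a library. S100a11 stood at 1268 CPM, S100a13 at 146 CPM and S100a4 at 67.7 CPM there. Over both unnamed clusters in PBS, S100a1 stood at 119 CPM and S100a16 at 99.3 CPM, which no named class reached. Together the 307 unnamed PBS cells, 3.96% of the library, held 13.9% of its S100a6 UMIs and 12.1% of its S100a10 UMIs.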
